A study of Mus musculus with 2 samples.

Results

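Translation factors are the proteins that load messenger RNA and initiator tRNA onto the ribosome and then carry the ribosome along the message. The 66 genes described here are the nuclear protein-coding genes of the mouse whose symbols join Eif (eukaryotic initiation factor) or Eef (eukaryotic elongation factor) to a number. They were taken by symbol alone, the Y-linked paralogue of Eif2s3x being left out, from 21461 nuclear protein-coding genes in the tables. Their RNA was measured by total RNA-seq in 1 group of 2 libraries, each made from a pool of 100 common myeloid progenitors (CMP). These are bone marrow cells that give rise to the red cell, platelet, granulocyte and macrophage lineages. The cells came from male C57BL/6J mice at 5 to 6 weeks of age, with no treatment or genetic change given in the labels. Only RNA above 200 nucleotides in size entered the libraries. The labels give both the same donor identifier, so SDs and p-values below measure only the spread between these 2 libraries, which may be technical. With 1 group there is no contrast of conditions, and the comparisons are between complexes, between paralogues, with all other genes and between the 2 libraries.

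Initiation begins when eIF2, bound to GTP, brings initiator tRNA to the small ribosomal subunit together with eIF1, eIF1A, eIF3 and eIF5. The eIF4 proteins bind the cap of the messenger RNA and unwind it, and eIF5B joins the large subunit once the start codon is found. In elongation eEF1A delivers each aminoacyl-tRNA, the eEF1B subunits recharge eEF1A with GTP, eEF2 moves the ribosome by 1 codon and eIF5A helps at slow peptide bonds. Kinases of eIF2 and the eIF4E-binding proteins slow initiation when cells are stressed or short of nutrients.

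Translation factor RNA was abundant and uneven. The 66 genes together summed to 11402 and 10817 TPM, a unit that corrects reads for transcript length and scales each library to 1000000, in replicates 1 and 2. One gene, Eef1a1, which encodes the eEF1A of most tissues, supplied 42.9% and 43.5% of that sum. At a TPM of 1 or more in both libraries, 62 of the 66 genes (93.9%) were detected, against 9627 of 21461 nuclear protein-coding genes (44.9%). The genes not detected in both were tissue-restricted paralogues and 1 methyltransferase, namely Eef1a2, Eif4e1b, Eef1akmt3 and Eif5a2. In these bulk pools, fewer cells with an RNA and less of that RNA per cell cannot be told apart.

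**Figure D1:**
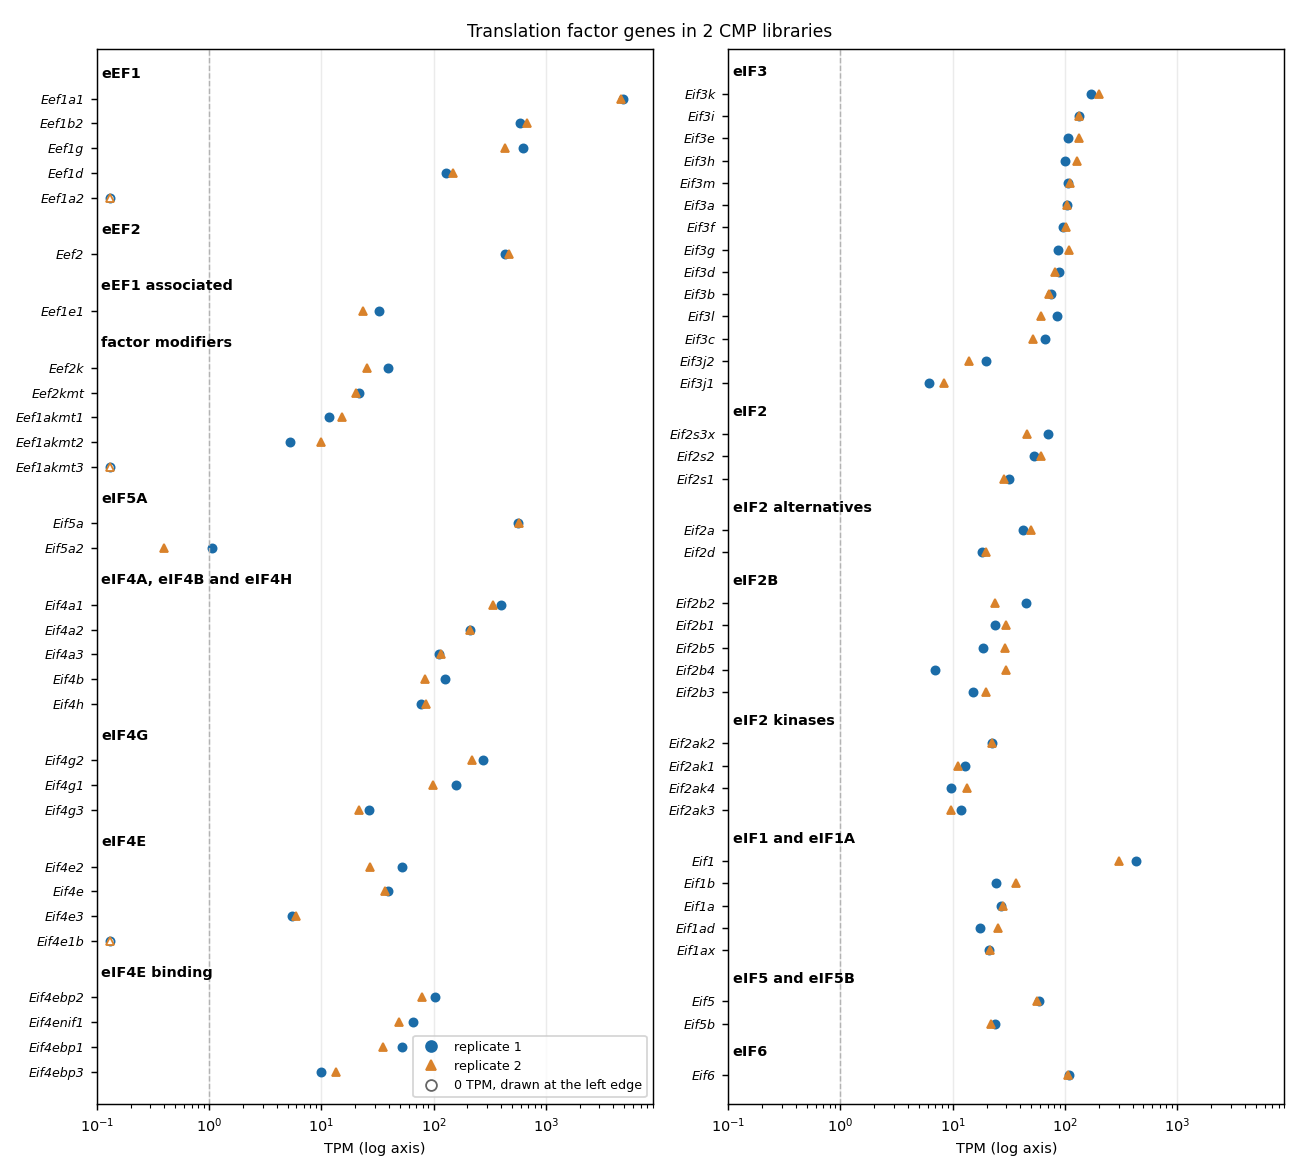
TPM of the 66 genes by complex, on a log axis, in replicate 1 (circles) and replicate 2 (triangles); open symbols are 0 TPM, and the dashed line is 1 TPM. Eef1a1 stands alone at 4893 and 4705 TPM, 12 of the eIF3 genes lie between 51.9 and 199 TPM, and Eef1a2, Eif4e1b and Eef1akmt3 are at 0.

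The tables summed to 28916263 and 26426710 expected counts for replicates 1 and 2, of which 43.9% and 45.3% fell in nuclear protein-coding genes. A count of 0 allows up to 3 counts, or 0.104 and 0.114 counts per 1000000 counts, and such limits cover counting error only. The labelled cell type was checked against 6 CMP genes (Kit, Cd34, Myb, Gata2, Gata1 and Mpo), which all lay between 52.6 and 386 TPM. Among genes of other cells, Ly6a, Il7r, Cd3e and Col1a1 were at 0 counts in both libraries. Ly6g and Adgre1 reached at most 2 counts, and Pecam1, an adhesion gene of endothelium and of many blood progenitors, had 20.0 and 17.3 TPM. The part of other cells in the results was not tested.

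The DNA around the annotated starts is shown for 7 members. They are Eef1a1, Eef2 and Eif1, the 3 members with the letters TATAA near the start, and Eef1a2, the paralogue of Eef1a1 at 0 counts. Eif2b5, Eif2s3x and Eif3f are added because the longest unbroken runs of C and T among the members lay at their starts. Such runs are of interest because many messenger RNAs of the translation apparatus begin with a C followed by pyrimidines, the 5′ terminal oligopyrimidine motif through which growth signals regulate their translation. Sequences are from RefSeq on build GRCm38.p6, written 5′ to 3′ on the strand of the gene, from 40 bases before to 30 bases after the annotated start. Capitals mark TATAA and, for each window, its longest run of 8 or more C or T, other such runs being left in lower case.
Eef1a1, chr9:78481695-78481764, minus strand: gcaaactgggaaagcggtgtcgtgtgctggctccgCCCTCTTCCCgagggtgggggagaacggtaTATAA
Eef1a2, chr2:181156986-181157055, minus strand: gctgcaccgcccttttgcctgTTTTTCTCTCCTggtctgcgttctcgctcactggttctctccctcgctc
Eef2, chr10:81176591-81176660, plus strand: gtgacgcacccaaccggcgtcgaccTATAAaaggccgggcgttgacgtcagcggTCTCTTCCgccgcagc
Eif1, chr11:100319909-100319978, plus strand: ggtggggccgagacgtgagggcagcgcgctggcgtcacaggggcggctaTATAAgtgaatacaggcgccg
Eif2b5, chr16:20498777-20498846, plus strand: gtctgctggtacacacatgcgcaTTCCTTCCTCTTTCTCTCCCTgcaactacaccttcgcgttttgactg
Eif2s3x, chrX:94212622-94212691, minus strand: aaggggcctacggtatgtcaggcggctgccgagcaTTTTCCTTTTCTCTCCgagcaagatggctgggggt
Eif3f, chr7:108934375-108934444, plus strand: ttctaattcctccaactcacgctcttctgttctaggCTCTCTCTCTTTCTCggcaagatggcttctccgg

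Windows were matched by symbol for 50 of the 66 members. TATAA, searched on the gene's strand from 60 bases before to 50 bases after the start, was present in 3 of 50 members (6%), against 8.52% of 16317 nuclear protein-coding genes with a window. By mean TPM, Eef1a1, Eef2 and Eif1 ranked 1, 5 and 7 among the members, and Eef1g, ranked 4, had no window. Whether TATAA goes with TPM was not tested. In Eef1a1 and Eif1 the letters began at base 26 and base 10 after the annotated start, and in Eef2 at base 15 before it. A run of 8 or more C or T touching the 20 bases on either side of the start was present in 15 of 50 members (30%), against 23.5% of all genes with a window. Eef1a2, at 0 counts, had such a run of 12 bases, and Eif3f, at 96.3 and 101 TPM, had one of 15. A match describes letters only, and the true starts in these cells were not measured.

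The 3 subunits of eIF2 were detected at similar levels, with the alpha subunit lowest. Eif2s3x, the GTP-binding gamma subunit, had 70.7 and 45.6 TPM in replicates 1 and 2, Eif2s2, the beta subunit, had 52.8 and 61.5 TPM, and Eif2s1, the alpha subunit whose phosphorylation blocks initiation, had 31.7 and 28.4 TPM. The values of Eif2s3x and Eif2s2 overlap, and both lie above Eif2s1 in each library. The log2 ratio of TPM + 1 was 0.90 ± 0.33 for Eif2s3x over Eif2s1 and 0.90 ± 0.26 for Eif2s2 over Eif2s1 (SD, n = 2). Of the factors that can deliver tRNA apart from eIF2, Eif2a had 42.2 and 49.5 TPM and Eif2d had 18.04 and 19.85 TPM, and their values do not overlap. Over protein-coding transcripts Eif2a had 32.2 and 17.9 TPM and Eif2d had 8.90 and 10.7 TPM, again with no overlap. In replicate 2 a transcript annotated as nonsense-mediated decay, Eif2a-207, took 57.6% of the TPM of Eif2a.

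The exchange factor eIF2B, which reloads eIF2 with GTP, had a median of 18.6 and 29.4 TPM over its 5 subunits. Its subunits differed in opposite directions between the libraries. Eif2b2 had 23.6 TPM in replicate 2, against 45.2 TPM in replicate 1. Eif2b4 had 30.1 TPM in replicate 2, against 6.96 TPM in replicate 1. Eif2b5, the catalytic subunit, had 29.4 TPM in replicate 2, against 18.6 TPM in replicate 1. Eif2b1 had 23.9 and 30.1 TPM in replicates 1 and 2, and its values overlap those of Eif2s1. The highest and the lowest eIF2B subunit were 6.50-fold apart in replicate 1 and 1.52-fold apart in replicate 2. This order of the libraries depended on the measure. Over protein-coding transcripts alone the spans were 2.44-fold and 3.20-fold, without Eif2b4, whose transcripts were not matched to the annotation.

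All 4 kinases of eIF2 were detected, at levels below those of the 3 eIF2 subunits in both libraries. Eif2ak2, the kinase PKR that senses double-stranded RNA, had 22.4 and 22.2 TPM and was the highest in both libraries. Eif2ak1, the haem-regulated kinase HRI of red cell precursors, had 12.8 and 11.2 TPM. Eif2ak3, the kinase PERK of the endoplasmic reticulum, had 11.9 and 9.56 TPM, and Eif2ak4, the amino acid sensor GCN2, had 9.72 and 13.3 TPM. The values of Eif2ak1 overlap those of Eif2ak3 and of Eif2ak4, while Eif2ak2 lies above Eif2ak1 by a log2 ratio of 0.84 (Eif2ak1 over Eif2ak2 -0.84 ± 0.12, SD, n = 2). Over protein-coding transcripts alone, an alternative chosen after the data were seen, that ratio was -0.03 and the values overlapped, and without length correction it was -0.15, again with overlap. Over protein-coding transcripts Eif2ak1 exceeded Eif2ak3, at a log2 ratio of 0.88 with no overlap, and Eif2ak4 and Eif2ak2 overlapped.

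Among the small factors that scan for the start codon, Eif1 was far above the rest. Eif1, which keeps the scanning subunit open, had 428 and 299.9 TPM, and its paralogue Eif1b had 24.2 and 36.8 TPM, so that Eif1 was 17.7-fold and 8.14-fold higher. The coding sequences of Eif1 and Eif1b were 81.3% identical over 342 aligned bases. Eif1a had 26.7 and 27.8 TPM and its X-linked paralogue Eif1ax had 21.1 and 21.3 TPM, a small difference with no overlap (Eif1ax over Eif1a -0.34 ± 0.03 on the log2 scale, SD, n = 2). Without the correction for length this ratio was 0.25 and the 2 genes overlapped. Eif5, which makes eIF2 hydrolyse GTP, had 59.1 and 56.6 TPM, 2.50-fold and 2.57-fold above Eif5b, the subunit-joining GTPase, at 23.6 and 22.0 TPM.

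The genes of eIF3, the scaffold that holds the small subunit and the other factors together, lay in a narrow band with the exception of subunit j. Its 14 genes had a median of 92.4 TPM in replicate 1 and 102.3 TPM in replicate 2. Without Eif3j1 and Eif3j2, the 12 other genes lay between 67.0 and 169 TPM in replicate 1 and between 51.9 and 199 TPM in replicate 2, a span of 2.53-fold and 3.83-fold. Eif3k led with 169 and 199 TPM, followed by Eif3i with 133 and 134 TPM and Eif3e with 106 and 134 TPM. Eif3k and Eif3i are separated in both libraries, while Eif3i and Eif3e overlap.

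The loosely bound eIF3 subunit j is encoded by 2 genes that stood apart from this band. Eif3j2 had 19.7 and 13.9 TPM and Eif3j1 had 6.18 and 8.39 TPM. Their coding sequences were identical over all 786 aligned bases, so that reads from that stretch belong equally to both, and the split rests on the rest of their transcripts. The expected counts, 904 and 631 for Eif3j2 and 669 and 903 for Eif3j1, overlap, and without length correction the log2 ratio of Eif3j1 over Eif3j2 was 0.040, against -1.10 ± 0.61 (SD, n = 2) in TPM. The deposited column named posterior standard deviation of the count, whose definition is not given beyond its name, was used as a description only. As a share of the count it was 3.41% and 3.35% for Eif3j1 and 2.53% and 4.76% for Eif3j2, and among the members tested it was above 1% for these genes and Eif4ebp3 only.

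Of the cap complex, the Eif4a helicases and 2 of the 3 scaffolds were above the cap-binding genes in both libraries in gene TPM. Over protein-coding transcripts this did not hold for Eif4a2 and Eif4a3, whose coding TPM in replicate 1, 49.2 and 35.7, lay below the 51.9 TPM of Eif4e2. Eif4a1, the main helicase, had 402 and 340.4 TPM, Eif4a2 had 212 and 209.7 TPM, and Eif4a3, the exon junction helicase of the same fold, had 112 and 116 TPM. This order, Eif4a1 over Eif4a2 over Eif4a3, held in both libraries, with log2 ratios of 0.81 ± 0.16 and 0.88 ± 0.04 (SD, n = 2). The helicase partners Eif4b, at 127 and 84.1 TPM, and Eif4h, at 77.4 and 85.0 TPM, overlap.

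Among the scaffolds, Eif4g2 (also called DAP5), which lacks the cap-dependent part of its relatives, was the highest. It had 276 and 219 TPM, against 159.6 and 98.8 TPM for Eif4g1 and 26.7 and 21.6 TPM for Eif4g3. Eif4g2 exceeded Eif4g1 by 1.73-fold and 2.21-fold, and Eif4g1 exceeded Eif4g3 by 5.99-fold and 4.58-fold. The 3 scaffolds did not overlap.

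The cap-binding gene Eif4e had 39.6 and 37.1 TPM. Its relative Eif4e2, which binds caps in repression, had 51.9 and 27.3 TPM, so that each was higher in 1 library and no order could be given. Eif4e3 had 5.51 and 5.97 TPM, 9.42-fold and 4.58-fold below Eif4e2. Eif4e1b, a gene of oocytes, had 0 counts in both libraries, and Eif4e was at least 205-fold higher when Eif4e1b is set at 3 counts per library.

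Of the binding proteins that hold Eif4e inactive until they are phosphorylated, Eif4ebp2 was the highest. Eif4ebp2 had 104 and 78.3 TPM, Eif4ebp1 had 52.6 and 35.2 TPM, and Eif4ebp3 had 9.97 and 13.4 TPM. The 3 genes did not overlap. Eif4ebp1 and Eif4e overlap in TPM. Eif4enif1, the eIF4E transporter, had 65.5 and 49.2 TPM, and Eif6, which keeps free large subunits from joining, had 109.6 and 106 TPM.

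The highest gene of all encodes an elongation factor. Eef1a1 (chromosome 9, 78478449 to 78489151 on GRCm38, minus strand) had 4893 and 4705 TPM in replicates 1 and 2, 11.3-fold and 10.1-fold above Eef2, the translocase, at 434 and 468 TPM. Eef1a2, the eEF1A of muscle and neurons, had 0 counts in both libraries although its coding sequence is 80.1% identical to that of Eef1a1 over 1389 aligned bases. With Eef1a2 set at 3 counts per library, Eef1a1 was at least 61791-fold higher in gene TPM. The protein-coding transcripts of Eef1a1 had 3633 and 3783 TPM, so the bound over those alone is lower. Over protein-coding transcripts Eef1a1 was 8.37-fold and 8.09-fold above Eef2, and without length correction 5.09-fold and 4.77-fold. At this depth, RNA of 1 of the 2 eEF1A genes was detected.

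The eEF1B subunits were unequal. Eef1b2, an exchange subunit, had 591 and 675 TPM, Eef1g, the structural subunit, had 623 and 434 TPM, and Eef1d, the other exchange subunit, had 128 and 149 TPM. Eef1d was below Eef1b2 in both libraries (-2.19 ± 0.02 on the log2 scale, and -1.71 ± 0.35 over protein-coding transcripts, SD, n = 2), and Eef1g and Eef1b2 overlap. Eef1e1, which sits with the aminoacyl-tRNA synthetases rather than on the ribosome, had 32.6 and 23.3 TPM.

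The hypusine-carrying factor Eif5a had 564 and 576 TPM. Its paralogue Eif5a2, with a coding sequence 73.2% identical over 462 bases, had 1.07 and 0.40 TPM from 107 and 40 counts. Eif5a was 527-fold and 1440.2-fold higher. Of the enzymes that act on elongation factors, Eef2k, the kinase that inactivates eEF2, had 39.1 and 25.3 TPM, and Eef2 was 11.1-fold and 18.5-fold above it. The methyltransferases Eef2kmt, at 21.7 and 20.5 TPM, Eef1akmt1, at 11.6 and 15.4 TPM, and Eef1akmt2, at 5.29 and 10.03 TPM, were all detected, while Eef1akmt3 had 0 counts.

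**Figure D2:**
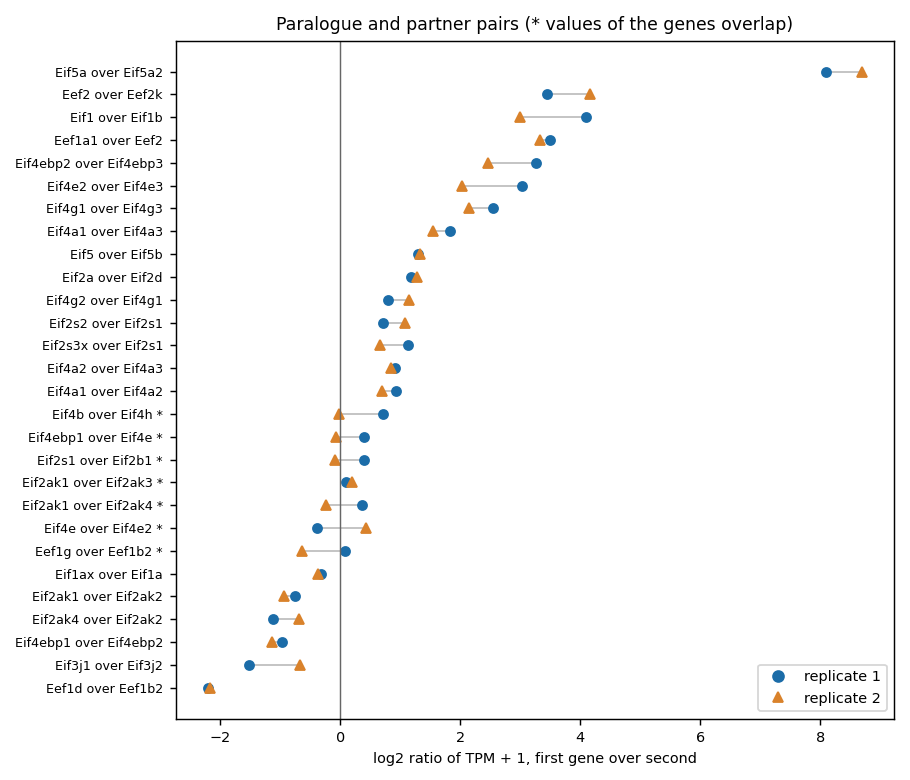
Log2 ratio of TPM + 1, first gene over second, for the 28 pairs with counts for both genes, in replicate 1 (circles) and replicate 2 (triangles); the starred pairs are those whose values overlap. Pairs run by mean ratio, with Eif5a over Eif5a2, Eef2 over Eef2k and Eif1 over Eif1b at the top by that mean, and Eef1d over Eef1b2 is the lowest.

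In all, 30 pairs of paralogues or partners were compared. The values did not overlap in 23 pairs, with the first gene higher in 17 and the second in 6, and they overlapped in 7. Of all possible pairs of tested genes, 82.2% do not overlap, so that 23 of 30 is near the background. No p is given for single pairs, because with 2 libraries the smallest exact two-sided sign-flip p is 0.5. Of the pairs with counts for both genes, 8 differed 4-fold or more in both libraries, a count that was not set against all possible pairs. Which pairs separated changed with the measure. Over protein-coding transcripts Eif2ak1 over Eif2ak2 and Eif2ak4 over Eif2ak2 overlapped, while Eef1g over Eef1b2 (-0.96), Eif2ak1 over Eif2ak3 (0.88) and Eif2s1 over Eif2b1 (0.32) separated.

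How far the family stood from a typical gene was tested with limma on log2(TPM + 1), against the median of 11656 nuclear protein-coding genes. Genes with at least 10 counts in either library were used, and their median was 9.70 and 10.2 TPM. At a Benjamini-Hochberg adjusted p of 0.05, 34.1% of all genes lay above that median gene and 29.9% below it. Of 63 members with enough counts, 53 lay above and 1, Eif5a2, lay below. The 63 members had a median difference of 2.40 on the log2 scale, against -0.02 for all genes tested, and 57 of 63 were above the median gene in both libraries, against 44% of all genes. All 3 members left out had 0 counts.

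Most complexes lay wholly or nearly wholly above the median gene. In eIF3, 13 of 14 genes lay above the median gene, the exception being Eif3j1 at -0.41 ± 0.34 (SE, n = 2; limma adjusted p = 0.309). Eif3j2 passed narrowly, at 0.68 ± 0.27 (SE, n = 2; limma adjusted p = 0.0478). The results for Eif3j1 and Eif3j2 rest on how reads from their identical coding sequences were divided, and on the length correction, as their expected counts overlap. All 4 eEF1 genes tested, all 3 eIF2 genes, all 5 genes of eIF4A, eIF4B and eIF4H and all 3 eIF4G genes lay above. Of the 4 eIF2 kinases only Eif2ak2 did (1.09 ± 0.23, SE; limma adjusted p = 0.00236). That call is in gene TPM. On its protein-coding transcripts Eif2ak2 had 7.87 and 10.5 TPM, which overlap the 9.64 and 8.13 TPM of Eif2ak1. The largest difference was that of Eef1a1, at 8.78 ± 0.16 (SE; limma adjusted p = 7.09e-10), and Eif5a2 lay at -2.68 ± 0.45 (SE; limma adjusted p = 0.000578). The other members not called were Eif2ak1, Eif2ak3, Eif2ak4, Eif2b4, Eef1akmt1, Eef1akmt2, Eif4ebp3 and Eif4e3.

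Lists of genes that work with these factors were set beside them, to be read against the 34.1% above and 29.9% below over all genes. The genes said to lead a list are the highest by mean TPM. Of 10 genes listed as initiation helpers, 8 lay above the median gene and 0 below. This list mixes genes that promote and genes that inhibit initiation, so its count describes neither kind alone. The highest by mean TPM were Pabpc1, the poly(A)-binding protein that meets eIF4G, at 707 and 581 TPM, and Paip2, its inhibitor, at 59.8 and 114 TPM. Paip2 was above Ddx3x in replicate 2 but not in replicate 1, where it had 59.8 TPM against 107 TPM. Of 9 release and recycling genes, 6 lay above and 2 below, led by Gspt1 (eRF3a, the termination GTPase) at 119 and 105 TPM and Abce1, which splits the ribosome, at 67.7 and 57.6 TPM. The 2 below were Gspt2 and Mcts2, named after their values were seen. Of 10 genes of signalling to initiation, 8 lay above and 0 below, led by Atf4, a transcription factor made when eIF2 is phosphorylated, at 57.5 and 62.0 TPM, and Mknk2, a kinase of eIF4E, at 37.9 and 49.4 TPM.

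The shares above in the remaining lists were nearer to the 34.1% over all genes. Of 10 mitochondrial translation factors tested, 5 lay above and 1 below, Mtrf1l, again named after its value was seen. They were led by Tufm, the mitochondrial counterpart of eEF1A, at 42.0 and 43.9 TPM, and Gfm2, a mitochondrial ribosome recycling factor, at 27.3 and 16.5 TPM. Of 9 genes that take part in the modification of eIF5A or eEF2, 4 lay above and 0 below. They were led by Dph3, of the diphthamide pathway of eEF2, at 30.1 and 34.8 TPM, and Dhps, which starts hypusine synthesis on eIF5A, at 29.6 and 25.7 TPM. The median differences of the lists were 2.81 for initiation helpers, 1.52 for release and recycling, 1.28 for signalling, 0.59 for mitochondrial factors and 0.39 for modification on the log2 scale.

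The size of the difference between the libraries depended on abundance and scaling. After scaling by the trimmed mean of M values (TMM), the median absolute log2 ratio of replicate 2 over replicate 1 was 0.25 over 63 members, against 0.51 over 13498 genes. In an exact binomial test of the rounded counts, 78.2% of all genes differed at an adjusted p of 0.05, and so did 56 of 63 members, 27 of them higher and 29 lower in replicate 2. This test sees counting error only. Among genes with 100 or more counts in both libraries, 54 of 61 members were called, against 74.7% of genes, and the median absolute log2 ratios were 0.24 for members and 0.32 for all genes. With total counts in place of TMM these medians were 0.33 and 0.35, and the difference between members and other genes was not tested.

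The split into higher and lower followed the scaling. With total counts, 39 members were higher and 14 lower in replicate 2, and the median log2 ratio of all genes was 0.23, against 0.03 under TMM, so that directions below hold relative to TMM. The exact test of edgeR with 1 dispersion shared by all genes (0.568) called 0 genes and 0 members, and 0 members had an unadjusted p under 0.05. Its dispersion comes from the same 2 libraries that it compares, so this count says nothing about single genes.

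**Figure D3:**
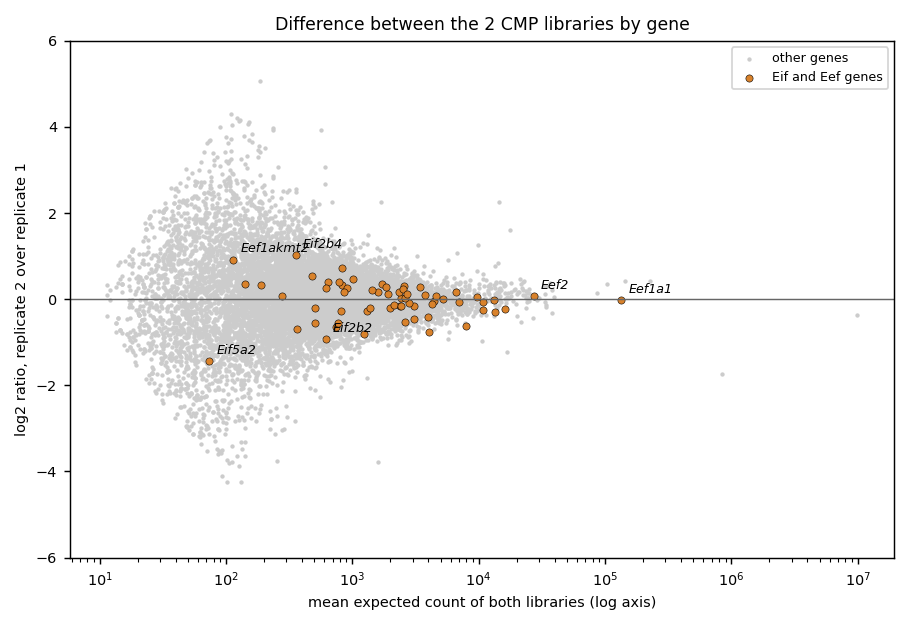
Log2 ratio of replicate 2 over replicate 1 against the mean expected count (log axis), for 11453 genes with 10 or more counts in both libraries (grey) and the 63 Eif and Eef genes among them (orange). Of the members, 49 lie within 0.5 of 0 and 2 lie beyond 1, counts that were not made for the other genes, and Eef1a1 and Eef2 lie close to 0.

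Eef1a1 and Eef2, both abundant, were close between the libraries. Eef1a1 had 134258 counts in replicate 2, against 134120 in replicate 1 (log2 ratio -0.03), and Eef2 had 28144, against 26329 (0.07). The 4 largest ratios among members with at least 50 counts in either library ran in both directions. Eif5a2 had 40 counts in replicate 2, against 107 in replicate 1, a log2 ratio of -1.44, and Eif2b2 had 429, against 803, a ratio of -0.93.

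Eif2b4 had 480 counts in replicate 2, against 232 in replicate 1, a log2 ratio of 1.02, and Eef1akmt2 had 151, against 78, a ratio of 0.92. Both Eif2b2 and Eif2b4 encode subunits of eIF2B, and they differed in opposite directions. The binomial test adjusted p of these 4 genes lay between 2.06e-27 for Eif2b2 and 6.19e-06 for Eef1akmt2, and covers counting error only.

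The transcript tables showed that gene TPM and coding RNA parted for some factors. Of 62 members with 50 or more counts in both libraries, 22 had 1 transcript in the tables and 40 had 2 or more. Of these 40, 28 had the same leading transcript in both libraries, and 12 had different ones. A transcript annotated as protein coding led in both libraries in 29, and one annotated as non-coding in 4, namely Eif2ak3, Eif2b2, Eif4a3 and Eif6. Most expected counts of these 4 genes still lay on coding transcripts. The coding share of counts in replicates 1 and 2 was 93.2% and 92.5% for Eif2ak3 and 66.3% and 75.3% for Eif4a3. For Eif6 it was 71.3% and 56.8%, and for Eif2b2 72.2% and 63.2%. Outside these 4 genes it was 41.1% and 45.1% for Eif4a2, led by a coding transcript in both libraries. For Eef1g, with different leading transcripts, it was 40.4% and 61.5%. Leading transcripts were not counted over all genes. Transcript types come from GENCODE M21 rather than the release used for counting.

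**Figure D4:**
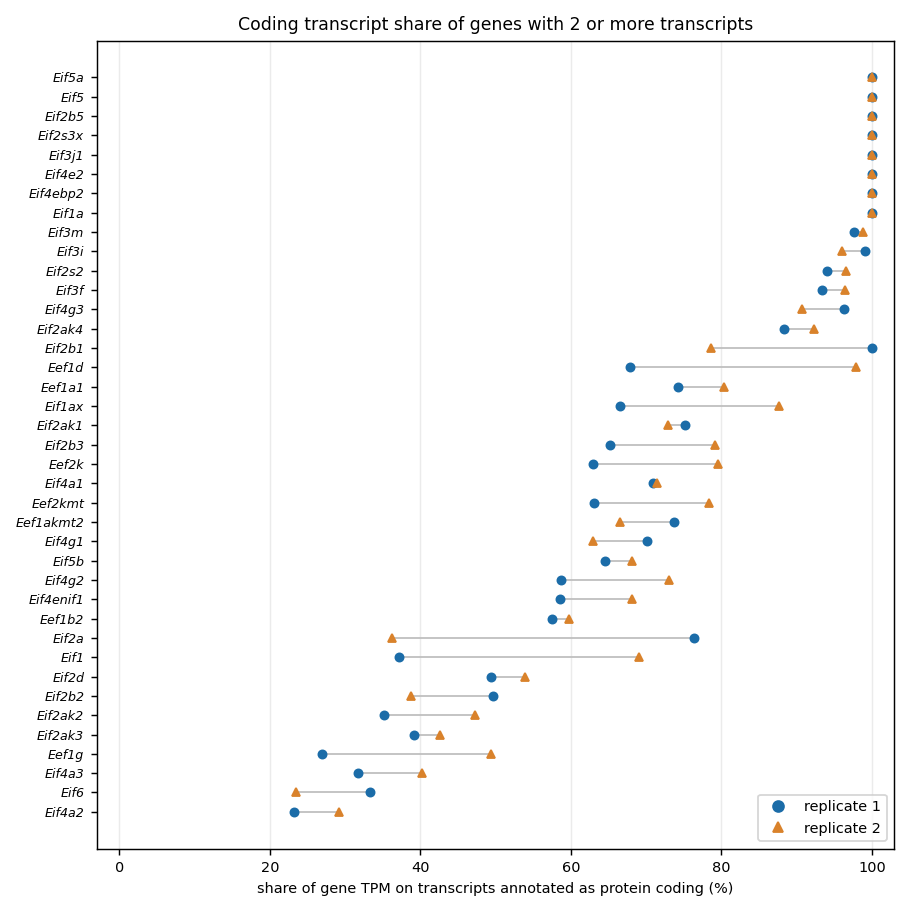
Share of each gene's TPM on transcripts annotated as protein coding (%), in replicate 1 (circles) and replicate 2 (triangles), for 39 genes with 2 or more transcripts; Eif2b4, with transcripts not matched to the annotation, is left out. The share was 90% or more in both libraries for 13 genes and under 50% in both for 7, from Eif4a2 at the bottom to Eif2b2.

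In the 4 genes led by a non-coding transcript in both libraries, that transcript was short, from 347 bases in Eif2ak3 to 587 bases in Eif2b2. Eif4a3-203, a processed transcript of 466 bases, took 65.1% and 53.5% of the TPM of Eif4a3, with 483 and 388 counts, while the coding Eif4a3-201 of 1509 bases had 999 and 1292 counts. Eif6-205, of 402 bases, took 59.9% and 39.2% of the TPM of Eif6, and its coding transcripts together had 36.5 and 25.0 TPM. Over coding transcripts alone Eif4a2 had 49.2 and 61.2 TPM and Eif4a3 had 35.7 and 46.8 TPM, and these values still did not overlap, at a log2 ratio of 0.42. Eif4a1 had 285 and 243 coding TPM, which raised its log2 ratio over Eif4a2 to 2.24, while that of Eif1 over Eif1b was 2.56.

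The leading transcript of Eif1 differed between the libraries. The coding Eif1-201 took 64.5% of the gene's TPM in replicate 2 and 35.0% in replicate 1, and the non-coding Eif1-202, of 383 bases, took 18.9% in replicate 2 and 43.6% in replicate 1. The counts of Eif1 were close, at 5277 in replicate 2 and 5191 in replicate 1, whereas its TPM was 299.9 in replicate 2 and 428 in replicate 1. Over coding transcripts Eif1 had 207 TPM in replicate 2 and 159 in replicate 1, the opposite order. Eif4g1 likewise had close counts, at 6953 in replicate 2 against 7137 in replicate 1, but 98.8 TPM in replicate 2 against 159.6 TPM in replicate 1. Its short Eif4g1-208, of 635 bases and annotated as protein coding, took 4.03% of TPM in replicate 2 and 37.9% in replicate 1. Over coding transcripts Eif4g1 had 62.2 TPM in replicate 2 and 112 in replicate 1, the same order as in gene TPM.

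In the elongation factor Eef1g, an intron-retaining transcript, Eef1g-205, took 44.3% of TPM in replicate 2 and 48.7% in replicate 1, and the coding Eef1g-201 took 49.4% in replicate 2 and 27.0% in replicate 1. Counted over coding transcripts, Eef1g was below Eef1b2 in both libraries, at a log2 ratio of -0.96. The coding share was 99.2% in each library over the eIF3 genes, and 76.3% in replicate 2 and 67.8% in replicate 1 over eEF1. All counts of Eif2b4 in replicate 1 lay on a transcript of 1767 bases, which had 6.82 TPM in replicate 2 and 6.96 TPM in replicate 1. The rest of its 30.1 TPM in replicate 2 lay on other transcripts, 4 of them with counts.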

How the data were processed

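Total RNA-seq of CMP was analysed from the deposited gene-level and transcript-level tables of each library. Both libraries form 1 group, and replicate numbers come from the labels. Reads were aligned by the authors to mm10 transcripts of GENCODE M4, per the labels and the text files beside the tables. For the aligner and quantifier, names and versions were not given in the sources. The deposited expected counts are the authors' estimates that divide shared reads between entries. The deposited TPM values were scaled by the authors over all table entries, tRNA and spike-ins included. The deposited percent values give each transcript's share of the TPM of its gene. Symbols, types and coordinates came from GENCODE M21 on GRCm38 by unversioned identifier, which matched 42462 of 43346 mouse genes. Eef1akmt4 and Eef1aknmt were not analysed here. A gene on the list of markers of other cells is not reported here.

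The members, lists, pairs and the rule for naming genes were chosen with earlier results of these data known. Genes named are the 3 highest members of each complex, members under 1 TPM in both libraries, both genes of each pair, the 4 members with the largest log2 ratio between libraries, and the 2 highest genes of each pathway list. Levels were compared as log2(TPM + 1). Limma 3.58.1 (with a variance trend) tested each gene's difference from the library's median gene, for genes with 10 or more counts in either library, two-sided, with Benjamini-Hochberg adjustment at 0.05. Libraries were compared with a two-sided exact binomial test on expected counts rounded to whole numbers and scaled by TMM in edgeR 4.0.16. DESeq2 1.42.0 size factors, total counts, edgeR's exact test, other pseudocounts and minimum counts, posterior mean TPM, TPM rescaled over nuclear protein-coding genes and no length correction were tried as alternatives, and TPM of protein-coding transcripts alone was added after the data were seen. Promoter windows were taken from RefSeq on GRCm38.p6, and coding sequences were built from GENCODE M21 and aligned in Biopython 1.88. The binomial and limma tests were also run on simulated data with known changes, in which the counts for the binomial test held counting error only.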

Additional observations from a re-analysis of the deposited data

Results flagged for a closer look

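A signal appeared in data that the comparisons did not use, namely a named processed pseudogene of the family. Eif4a-ps4 (chromosome 1, 60703932 to 60705149 on GRCm38), annotated as a processed pseudogene, had 185 and 198 expected counts and 8.39 and 9.16 TPM in replicates 1 and 2, a mean of 8.78 ± 0.54 TPM (SD, n = 2). This lies above the 3 counts that a count of 0 allows. The other 5 named pseudogenes of Eif and Eef genes had at most 2.02 counts. The source of these reads was not tested.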

How the results depend on the processing

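Detection in both libraries stood at 62 or 63 members under every threshold, scaling and single library tried. The count of members above the median gene, 53, lay between 49 and 53 under the 7 alternatives, and 1 member lay below under each, which was Eif5a2 except with 50 counts in both libraries, where Eif5a2 was not tested and Eif4e3 lay below (-1.10). The median of all members, 46.8 TPM, was 36.8 TPM over protein-coding transcripts alone, an alternative added after the data were seen; without replicate 1 it was 41.3 and without replicate 2 it was 52.2 TPM. The count of pairs with no overlap, 23, lay between 23 and 25, but the pairs differed: 20 of 30 ratios moved by more than their SD and 2 reversed without length correction, and 13 moved and 1 reversed over protein-coding transcripts. Over protein-coding transcripts the called ratio of Eif2ak4 over Eif2ak2 turned to 0.16. Without length correction the called ratios of Eif1ax over Eif1a and Eif3j1 over Eif3j2 turned to 0.25 and 0.040, and both pairs overlapped, as did Eif2ak1 over Eif2ak2 (-0.15) and Eif2ak4 over Eif2ak2 (-0.12). Under that setting 6 pairs that overlapped in TPM separated, namely Eef1g over Eef1b2 (0.46), Eif4b over Eif4h (1.05), Eif4e over Eif4e2 (0.83), Eif4ebp1 over Eif4e (-1.52), Eif2s1 over Eif2b1 (1.19) and Eif2ak1 over Eif2ak3 (1.13). The cause was not tested. Calls between the libraries stood at 56 members, at 53 with total counts and at 0 in edgeR's exact test with a shared dispersion, where 0 members had an unadjusted p under 0.05 and whose dispersion comes from the 2 libraries compared. The count of genes with the same leading transcript was 27 or 28. No paired analysis was possible because the design holds 1 group of 2 libraries. With 2 libraries from 1 donor identifier, differences between animals cannot be seen.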
